A study of Homo sapiens with 6 samples.

Results

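The genes described here carry the signal of the BCR-ABL kinase in K562 cells, an established human line from chronic myelogenous leukemia. They were taken by name as 10 of the 19330 genes in the table of RNA-Seq counts: BCR and ABL1, which are joined in the fusion, the adaptors GRB2, GAB2 and CRKL, the transcription factors STAT5A and STAT5B, and the STAT5 target genes PIM1, CISH and SOCS2. K562 cells were infected with lentivirus from pLentiCRISPRv2, which carries Cas9 and an sgRNA, with an sgRNA against N6AMT1 (sgN6AMT1) or control sgRNAs (sgCtrl). The labels name the control targets as OR11A1 and OR2M49, and the study's methods as EGFP or as OR11A1 and OR2M4. All cells of both conditions passed puromycin selection and were collected at day 10 after infection. N6AMT1 encodes the methyltransferase that modifies the translation termination factor eRF1. There were 3 libraries per condition, each from its own transduction and each from a pool of infected cells rather than a clone, so that edited and unedited alleles are mixed. Which sgRNA a library received is not given in the sources used here.

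Total counts were 742470 to 866894 in the 3 sgCtrl libraries, 959319 in sgN6AMT1 replicate 1, and 5526904 and 4062363 in replicates 2 and 3, so the deeper libraries were all of one condition. Each level below is in TMM-normalized cpm, a count scaled to the depth and composition of its library. The targeted gene, N6AMT1, was counted 6, 5 and 9 times in the sgCtrl libraries and 0, 18 and 16 times in the sgN6AMT1 libraries. This gave 8.15 ± 2.42 and 2.47 ± 2.18 cpm (SD, n = 3) without overlap of the conditions. It was too low for the filter on low counts and was not tested in the main fit. DESeq2 gave a log2 fold change of -1.51 with an adjusted p of 0.231. Of 14 erythroid genes that mark K562, all were detected above the filter. At an edgeR adjusted p under 0.05, 4 of the 14 were higher in sgN6AMT1 (HBG1, HBG2, HBE1 and ALAS2), against 5.09% of all genes tested, and 1 was lower (LMO2), against 4.76%. Their summed level was 13110 to 19780 cpm in sgCtrl and 20400 to 37490 cpm in sgN6AMT1. Of 12 markers of other cell types, 6 had no more than 10 counts in any library and MS4A1 had 0 in all of them. Of the 12, 5 passed the filter. At the same threshold 2 of these 5, LYZ and KRT8, were higher in sgN6AMT1, against 5.09% of all genes tested. The other 3 were not called, with log2 fold changes of -0.35 for EPCAM, 0.099 for PTPRC and 0.0475 for COL1A2. The summed level of the 12 was 568.4 to 675.5 cpm in sgCtrl and 814.6 to 931.9 cpm in sgN6AMT1. The part of these shifts in the results below was not tested. In RNA from a whole population, a smaller share of cells that express a gene and less RNA per cell cannot be told apart.

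The Philadelphia chromosome joins the 5′ part of BCR, on chromosome 22, to the 3′ part of ABL1, on chromosome 9, and the product is a tyrosine kinase that is always active. Phosphorylated BCR-ABL recruits GRB2, which connects it to RAS and, through GAB2, to PI3-kinase, and it phosphorylates CRKL, an adaptor whose phosphorylation is used to read out the kinase in the clinic. It also leads to phosphorylation of STAT5A and STAT5B, which enter the nucleus and bind DNA as dimers. Among their targets, PIM1 is a serine/threonine kinase that promotes survival, and CISH and SOCS2 are SOCS-box proteins that dampen cytokine receptor signalling. Activity of the kinase and of STAT5 is set by phosphorylation, which counts of RNA do not measure.

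The sequences at the fusion show which counts the fusion can contribute. K562 is known to join BCR exon 14 to ABL1 exon 2. In GRCh38 with GENCODE v44, BCR lies on the plus strand of chromosome 22 from 23179704 to 23318037 with 23 exons, and ABL1 on the plus strand of chromosome 9 from 130713043 to 130887675 with 11 exons. The last 30 bases of BCR exon 14 (22:23290339-23290413) and the first 30 bases of ABL1 exon 2 (9:130854064-130854237), both coding, read in the reference as follows.
BCR exon 14, end: actcagccactggatttaagcagagttcaa
ABL1 exon 2, start: aagcccttcagcggccagtagcatctgact
Up to and including exon 14, BCR holds 3234 of the 6783 nt of its annotated transcript (47.7%), and from exon 2 on, ABL1 holds 5306 of 5578 nt (95.1%). A count on either gene therefore mixes the fusion with the unfused transcript, and the counts cannot separate them.

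STAT5 dimers recognise the letters TTCNNNGAA, which read the same on both strands. The 250 bases before the RefSeq starts of each member, on GRCh38.p14, were searched for them. These starts can differ from the gene starts given in this report. The windows of ABL1 (9:130835004-130835253) and STAT5B (17:42276392-42276641) lie inside the genes, and GAB2 and STAT5A had more than 1 window. Every member other than SOCS2 had an entry. CISH held 4 matches, at 241, 230, 129 and 112 bases before its start, and the other members with an entry held 0. Of 35116 such windows over all genes, 2306 (6.57%) held at least 1 match and 5 (0.0142%) held at least 4. The CISH sequences are printed because they hold every match among the members. Capitals mark the matches, and both are on the minus strand, on which CISH is read. MAPKAPK3, on the other strand, overlaps CISH by 255 nt, so the pair nearer to the start lies within that gene. The nearer pair lies before the first MAPKAPK3 exon that begins in the window, and the pair farther away lies past its beginning. Whether an exon that begins earlier reaches the nearer pair was not checked. Where the MAPKAPK3 exons end was not checked.
CISH, 3:50611775-50611907: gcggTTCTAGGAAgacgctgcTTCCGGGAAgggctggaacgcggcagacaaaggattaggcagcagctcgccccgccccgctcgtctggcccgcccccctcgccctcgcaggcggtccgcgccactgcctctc
CISH, 3:50611991-50612020: ccgttTTCCTGGAAagTTCTTGGAAatctg
A match is a description of letters and not evidence that STAT5 was bound in these cells, and binding was not measured in the libraries used here.

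Between the conditions, the transcripts of the fusion partners and adaptors did not pass the test, STAT5A was lower in sgN6AMT1, and PIM1 and SOCS2 were higher. All 10 members passed the filter on low counts. By edgeR's quasi-likelihood test with Benjamini-Hochberg adjustment over the 8324 genes tested, 3 of 10 members changed at an adjusted p under 0.05, against 9.85% of all genes tested (820 genes). Higher in sgN6AMT1 were 2 members, with a background of 5.09%, and 1 was lower, with a background of 4.76%. At an unadjusted p under 0.05 there were 4 members, against 26.2% of all genes. The 3 libraries of one condition lay entirely above or below those of the other for 4 members, against 29.2% of all genes. The median log2 fold change, sgN6AMT1 against sgCtrl, was 0.13 over the members and 0.01 over all genes tested. As the members are few, the counts describe these 10 genes only.

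**Figure D1:**
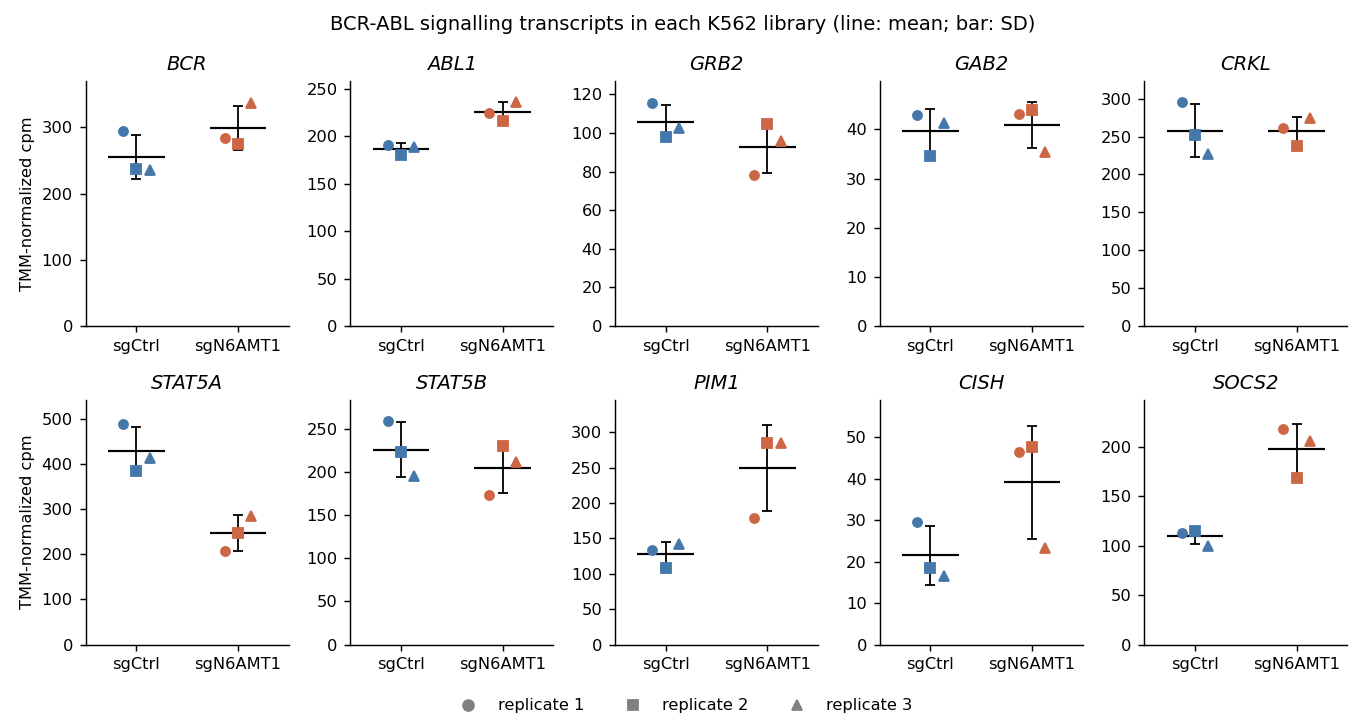
Level of each of the 10 transcripts in every library, in TMM-normalized cpm on a linear axis from 0, with sgCtrl in blue and sgN6AMT1 in orange. Symbols give the replicate number, horizontal lines the mean and bars the SD of 3 libraries. The 3 sgN6AMT1 points lie below all sgCtrl points for STAT5A and above them for ABL1, PIM1 and SOCS2.

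BCR, which gives the fusion its promoter and its oligomerization domain, stood at 294.3, 237.7 and 235.8 cpm in sgCtrl replicates 1 to 3. In sgN6AMT1 it stood at 284.5, 274.7 and 337.0 cpm. The conditions overlapped, since sgCtrl replicate 1 was above sgN6AMT1 replicates 1 and 2. The log2 fold change was 0.23 (SE 0.15, 95% interval -0.09 to 0.55), with an edgeR adjusted p of 0.364. ABL1, the source of the kinase domain, was measured at 190.8, 180.0 and 188.6 cpm in sgCtrl and at 224.5, 215.4 and 236.0 cpm in sgN6AMT1. All sgN6AMT1 libraries were higher, which 15.1% of all genes also showed, by a log2 fold change of 0.27 (SE 0.14, 95% interval -0.03 to 0.57) that did not pass the test (edgeR adjusted p = 0.239).

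Because a ratio of counts within a library does not depend on scaling, ABL1 was also set against BCR library by library. There were 0.648, 0.757 and 0.800 counts of ABL1 for each count of BCR in sgCtrl, and 0.789, 0.784 and 0.700 in sgN6AMT1. The conditions overlapped. On the log2 scale the ratio was -0.45 ± 0.16 in sgCtrl and -0.40 ± 0.10 in sgN6AMT1 (SD, n = 3), a difference of 0.05 with a two-sided exact permutation p of 0.7, where the smallest p that 3 against 3 libraries allow is 0.1. At the 2 loci, 15 genes of the table lie within 500 kb of BCR and 14 within 500 kb of ABL1, but only 2 and 5 of these passed the filter, and their edgeR adjusted p was 0.0788 or higher. At an unadjusted p under 0.05 were 2 genes, both near ABL1 and singled out after their values were seen: NUP214, a nuclear pore component, at 633.9 ± 112.5 cpm in sgCtrl and 465.0 ± 61.4 cpm in sgN6AMT1 (log2 fold change -0.45, edgeR adjusted p = 0.0788), and FUBP3, an RNA-binding protein, at 104.5 ± 3.58 and 73.5 ± 17.9 cpm (-0.51, edgeR adjusted p = 0.112). These neighbours had negative values where ABL1 had a positive one, and no difference between genes was tested.

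GRB2, the adaptor that brings the RAS exchange factor to the kinase, lies on chromosome 17 (75318076 to 75405709, minus strand). It was at 115.6, 98.1 and 102.6 cpm in sgCtrl and at 78.0, 104.8 and 95.6 cpm in sgN6AMT1. The conditions overlapped, and the lowest value was that of sgN6AMT1 replicate 1. Its log2 fold change was -0.16 (95% interval -0.53 to 0.21, edgeR adjusted p = 0.615). GAB2, the scaffold that docks PI3-kinase and the phosphatase SHP2, lies on chromosome 11 (78215293 to 78418348, minus strand). With 30 to 35 counts in each sgCtrl library it was among the least deeply measured members. Its levels were 43.0, 34.6 and 41.3 cpm in sgCtrl and 43.20, 43.99 and 35.48 cpm in sgN6AMT1. The overlapping values gave a log2 fold change of 0.04 with the wider interval of -0.44 to 0.52 (edgeR adjusted p = 0.937).

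CRKL lies on the plus strand of chromosome 22 (20917407 to 20953747), 2225957 nt from BCR. It had 295.6, 251.5 and 226.3 cpm in sgCtrl and 261.3, 237.5 and 274.3 cpm in sgN6AMT1, so that all sgN6AMT1 values fell inside the range of sgCtrl. The means were 257.8 ± 35.1 and 257.7 ± 18.7 cpm (SD, n = 3), and the 95% interval of the log2 fold change ran from -0.31 to 0.31 (edgeR adjusted p = 0.999). For the 3 adaptors, these intervals bound the change that the libraries could still hold and do not show that the levels were equal.

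STAT5A changed and its paralog STAT5B did not pass the test. STAT5A, on the plus strand of chromosome 17 (42287547 to 42311943), was counted 364, 334 and 351 times in the sgCtrl libraries and 197, 1359 and 1112 times in the sgN6AMT1 libraries. Scaled to depth, this was 489.1, 385.3 and 413.8 cpm in sgCtrl and 207.6, 248.0 and 285.9 cpm in sgN6AMT1. Every sgN6AMT1 library was below every sgCtrl library, and the shallow sgN6AMT1 replicate 1 was the lowest. STAT5A fell by 0.79 on the log2 scale (SE 0.16, 95% interval -1.11 to -0.46), a level 1.72-fold lower, with an edgeR adjusted p of 0.00486. STAT5B, on the minus strand beside it (42199176 to 42288633), had 259.3, 223.8 and 195.7 cpm in sgCtrl and 173.9, 231.1 and 211.8 cpm in sgN6AMT1. These values overlapped, with a log2 fold change of -0.12 (95% interval -0.46 to 0.21, edgeR adjusted p = 0.672).

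STAT5A and STAT5B encode closely related proteins, and their 5′ ends overlap on opposite strands by 1087 nt, of which 415 nt are exonic in both. Whether the strand was used in counting is not given in the sources used here, and neither is the treatment of reads that map to both paralogs, so the division of reads between the 2 genes is uncertain there. Of the counts on both, STAT5A took 65.4% (95% Wilson interval 61.3 to 69.2%), 63.3% (59.1 to 67.3%) and 67.9% (63.8 to 71.8%) in the sgCtrl libraries. In sgN6AMT1 it took 54.4% (49.3 to 59.5%), 51.8% (49.9 to 53.7%) and 57.4% (55.2 to 59.6%). The intervals cover counting error only. All 3 sgN6AMT1 shares were lower than all sgCtrl shares, with means of 54.5 ± 2.83% and 65.5 ± 2.32% (SD, n = 3). The difference of -11.0 percentage points reached the smallest two-sided exact permutation p that 3 against 3 allow, 0.1.

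**Figure D2:**
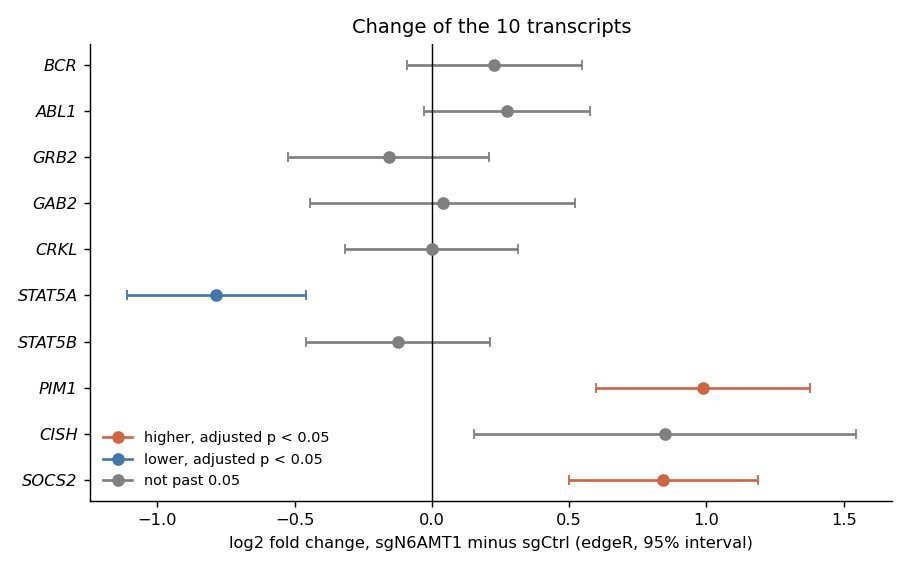
Log2 fold change of each member, sgN6AMT1 against sgCtrl, from edgeR with its 95% interval; orange marks higher and blue lower at an adjusted p under 0.05. STAT5A lies at -0.79, PIM1 at 0.99 and SOCS2 at 0.84, while the interval of CISH (0.15 to 1.54) is the widest.

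All 3 STAT5 target genes among the members had positive log2 fold changes, and PIM1 and SOCS2 passed the test. PIM1, on chromosome 6 (37170152 to 37175428, plus strand), had 133.0, 108.4 and 141.5 cpm in sgCtrl. In sgN6AMT1 it had 179.1, 284.4 and 285.4 cpm. No library overlapped, but replicate 1, the shallow sgN6AMT1 library, rose least: against the mean of sgCtrl it was higher by 0.49 on the log2 scale, and replicates 2 and 3 by 1.16 each. PIM1 rose by a log2 fold change of 0.99 (SE 0.19, 95% interval 0.60 to 1.38), or 1.98-fold, with an edgeR adjusted p of 0.00355. Without the 2 deep sgN6AMT1 libraries, replicate 1 against the 3 sgCtrl libraries gave 0.50 with an adjusted p of 0.406, a comparison chosen after the data were seen in which a lone library is taken to vary like the others.

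SOCS2, on chromosome 12 (93569814 to 93583487, plus strand), had 112.9, 115.4 and 100.2 cpm in sgCtrl. It had 218.1, 168.6 and 206.2 cpm in sgN6AMT1, and here the shallow replicate 1 was the highest. The lowest sgN6AMT1 value was above the highest sgCtrl value by more than the SD of either condition (8.13 and 25.8 cpm). SOCS2 rose by a log2 fold change of 0.84 (SE 0.16, 95% interval 0.50 to 1.19), or 1.79-fold, with an edgeR adjusted p of 0.00418. An antisense gene, SOCS2-AS1, shares 277 nt of exon with it on the other strand and was not analysed here.

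CISH, on chromosome 3 (50606489 to 50611774, minus strand), was the member with the fewest counts in sgCtrl, 22, 16 and 14, and 44, 261 and 91 in sgN6AMT1. These were 29.6, 18.5 and 16.5 cpm in sgCtrl and 46.4, 47.6 and 23.4 cpm in sgN6AMT1. The conditions overlapped because sgN6AMT1 replicate 3 was below sgCtrl replicate 1. CISH had a log2 fold change of 0.85, close to that of SOCS2, but with an SE of 0.33 it did not pass the test (edgeR unadjusted p = 0.0195, adjusted p = 0.111). Without sgN6AMT1 replicate 3 it did, at 1.15 with an adjusted p of 0.0161. Part of CISH, 218 nt of exon, is shared with MAPKAPK3 on the other strand, so its counts are uncertain to that extent.

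The SOCS-box target genes were set against their factor within each library, as counts of CISH and SOCS2 together for each count of STAT5A and STAT5B together. The ratio was 0.190, 0.220 and 0.192 in sgCtrl and 0.693, 0.451 and 0.461 in sgN6AMT1. Every sgN6AMT1 ratio was above every sgCtrl ratio, and replicate 1 was the highest. On the log2 scale the means were -2.32 ± 0.12 and -0.93 ± 0.35 (SD, n = 3), a difference of 1.39 or 2.62-fold, with a two-sided exact permutation p of 0.1, the smallest possible. The ratio joins a numerator that includes SOCS2 and a denominator that includes STAT5A, both already described above, so it adds no separate gene.

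**Figure D3:**
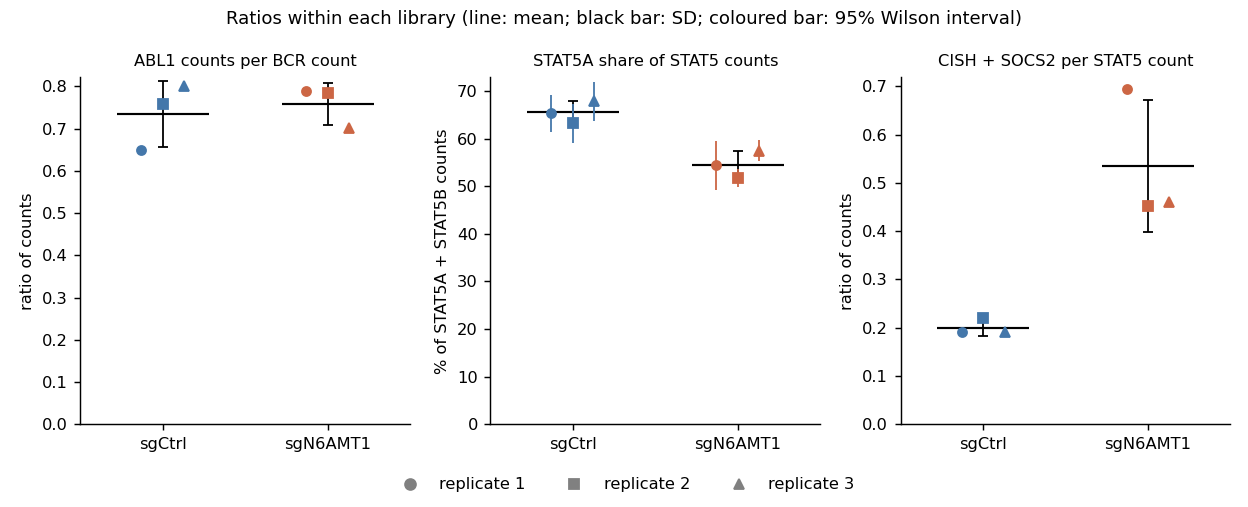
Ratios of counts within each library: ABL1 per BCR count, STAT5A as a percent of STAT5A and STAT5B counts, and CISH with SOCS2 per STAT5 count, on linear axes from 0. Lines and black bars give the mean and SD of 3 libraries, and coloured bars the 95% Wilson interval of each share. The conditions overlap for ABL1 per BCR and are separate for the other two, at 51.8 to 57.4% against 63.3 to 67.9% and at 0.451 to 0.693 against 0.190 to 0.220.

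Levels of different genes were compared per kb of the annotated transcript. In sgCtrl, STAT5A had the highest level of the 10, at 113.9 ± 14.2 cpm per kb (SD, n = 3), and its range did not reach that of the next gene. CRKL, PIM1, SOCS2, STAT5B and BCR followed between 48.3 and 37.7 cpm per kb, each overlapping its neighbour in the order. ABL1 (33.4 cpm per kb) and GRB2 (32.2 cpm per kb) overlapped each other and had means below that of BCR. All ABL1 values were below those of BCR, while the highest GRB2 value (35.32) was above the lowest BCR value (34.76). CISH, at 10.7 cpm per kb, and GAB2, at 6.49 cpm per kb, were the lowest and were separate from each other.

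In sgN6AMT1 the order was led by PIM1 (92.4 ± 22.6 cpm per kb), SOCS2 (82.8 ± 10.8 cpm per kb) and STAT5A (65.6 ± 10.4 cpm per kb), whose neighbours overlapped. CRKL, BCR, STAT5B and ABL1 came next between 48.2 and 40.4 cpm per kb, without separation of neighbours. GRB2 (28.4 cpm per kb), CISH (19.4 cpm per kb) and GAB2 (6.69 cpm per kb) kept the last places, each separate from the next. For BCR and ABL1 the length used is that of the unfused transcript, and the fusion carries a part of each.

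**Figure D4:**
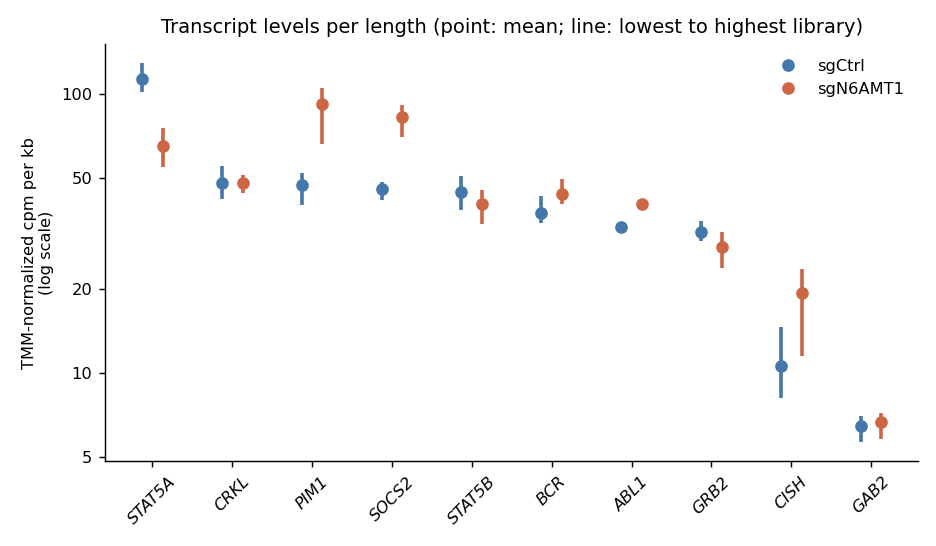
Level of each member per kb of transcript, in TMM-normalized cpm per kb on a log axis, ordered by the sgCtrl mean. Points are means and lines run from the lowest to the highest of 3 libraries. STAT5A goes from 113.9 to 65.6, PIM1 from 47.2 to 92.4 and SOCS2 from 45.9 to 82.8, and GAB2 is the lowest in both conditions.

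Genes with the most similar pattern over the 6 libraries were found by the root mean square difference of centred log2 levels, among 4168 genes (4169 for CISH) with a mean of at least 50 cpm. For STAT5A the nearest were SSX1 (0.10), FADS1 (0.12) and SLAIN2 (0.13). The nearest to PIM1 were FXR2 (0.15), SLC3A2 (0.15) and RPS10 (0.16), and to SOCS2 they were PAGE5 (0.09), TM7SF3 (0.12) and IGBP1 (0.12). The nearest to CISH was SRPRB, at 0.26. None of these is another member, but CISH and GAB2, with means under 50 cpm, could not be found as matches. ABL1 had closer matches, at 0.04 for TXNRD1, POLG and KBTBD2.

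The rest of the pathway was read from 6 lists of genes that act with or below BCR-ABL, with the members left out. Of 126 genes listed, 118 were analysed here and 84 passed the filter. edgeR called 5 of them, 2 higher and 3 lower, against the background of 9.85%, and 22 of 84 had an unadjusted p under 0.05, at the background of 26.2%. Their median log2 fold change was -0.05. Which share was larger depended on the fit: DESeq2 called 7 of 95 listed genes and 632 of 9659 genes in all, and edgeR with no filter called 12 of 113 and 1201 of 13874.

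Upstream, 14 of 19 adaptors and phosphatases around the kinase passed the filter, with a median log2 fold change of -0.09. Neither edgeR nor DESeq2 called any of them, and 4 of 14 had an unadjusted p under 0.05 by edgeR, near the background of 26.2%. PTPN11, which encodes the phosphatase SHP2 that binds GAB2, was one of these, at 189.5, 263.0 and 168.6 cpm in sgCtrl and 162.3, 144.4 and 143.5 cpm in sgN6AMT1 (log2 fold change -0.47, edgeR adjusted p = 0.0842). Its value turned on single sgCtrl libraries, at -0.27 without replicate 2 (adjusted p = 0.446) and -0.61 without replicate 3 (0.0477). The others, named after their values were seen, were SHC1, an adaptor upstream of GRB2, at 0.57, GAB1, the paralog of GAB2, at -0.87, and the phosphatase PTPN12 at -0.90. LYN, an SRC-family kinase, was at 143.4 ± 17.7 and 128.2 ± 6.30 cpm (SD, n = 3), with a log2 fold change of -0.17 (edgeR adjusted p = 0.542). GAB2 and its relative GAB1 thus had values of 0.04 and -0.87, and the difference between them was not tested.

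In the RAS-MAPK cascade, reached through GRB2, 13 of 16 genes passed the filter and the median was -0.01. By edgeR 1 gene was called, higher in sgN6AMT1, against 5.09% of all genes tested. At an unadjusted p under 0.05 were 3 of 13, against 26.2%. The conditions did not overlap for 4 of 13, against 29.2%. MAP2K2, which encodes the kinase MEK2, was at 162.6, 128.1 and 137.9 cpm in sgCtrl and at 204.4, 201.7 and 271.0 cpm in sgN6AMT1. The conditions did not overlap, and MAP2K2 rose by a log2 fold change of 0.67 (SE 0.17, edgeR adjusted p = 0.0186). This call was lost without sgCtrl replicate 2 (adjusted p = 0.122) or replicate 3 (0.0528). Corrected for GC content and length, the log2 fold change of MAP2K2 was smaller, at 0.43 (edgeR adjusted p = 0.043).

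Transcripts that this cascade induces or that restrain it were mostly too low to test, with 6 of 17 past the filter. The median of those was -0.25, and 2 of 6 were lower in sgN6AMT1, against 4.76% of all genes tested. These 2, EGR1 and FOSL1, passed the filter only through sgCtrl, where they were higher. Their share therefore depends on the filter and is not support for a fall of the list. Among the 11 that were too low to test, 3 were higher without overlap and are named after their values were seen. DUSP5, a MAP kinase phosphatase, was counted 0, 0 and 2 times in the sgCtrl libraries and 14, 36 and 33 times in the sgN6AMT1 libraries, PHLDA1 had 2, 1 and 0 against 5, 25 and 16, and the phosphatase DUSP4 had 0 in sgCtrl and 1, 5 and 1 in sgN6AMT1. These counts are low, the deeper libraries were all of sgN6AMT1, and the share of such genes among all untested genes was not computed. Among the 6 genes tested, 2 had positive and 4 had negative log2 fold changes, so the list held values in both directions. EGR1, an immediate early transcription factor, was at 24.2, 21.9 and 18.9 cpm in sgCtrl and at 7.38, 8.94 and 6.94 cpm in sgN6AMT1. It fell by 1.44 on the log2 scale (SE 0.33, edgeR adjusted p = 0.0119), and lost the call without sgCtrl replicate 1 (0.0597) or replicate 2 (0.0652). FOSL1, a subunit of the AP-1 factor, was at 12.09, 16.15 and 12.97 cpm in sgCtrl and at 5.27, 2.92 and 4.11 cpm in sgN6AMT1. It fell by 1.88 (SE 0.41, edgeR adjusted p = 0.00907), and lost the call without sgCtrl replicate 2 (0.0756) or sgN6AMT1 replicate 2 (0.0657). The conditions were separate for both genes. The gene that was higher, MAP2K2, acts in the cascade, whereas EGR1 and FOSL1 are among its products.

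Along the PI3K-AKT-mTOR branch, reached through GAB2, 22 of 25 genes passed the filter with a median log2 fold change of -0.08. By edgeR and by DESeq2, 0 were called, and by edgeR 4 of 22 had an unadjusted p under 0.05, a share below the 26.2% of all genes tested. Named after their values were seen, these were the catalytic subunits PIK3CB (-0.51) and PIK3CD (0.99), the kinase AKT1 (-0.46) and the transcription factor FOXO3 (0.68). PIK3CD had only 4, 4 and 9 counts in the sgCtrl libraries and passed the filter only through sgN6AMT1, where it was higher. The kinase MTOR was at 267.4 ± 29.6 cpm in sgCtrl and 241.9 ± 54.2 cpm in sgN6AMT1, with a log2 fold change of -0.13 (edgeR adjusted p = 0.666). RHEB, the GTPase that activates it, was at 281.0 ± 13.02 and 279.0 ± 68.9 cpm (-0.02, edgeR adjusted p = 0.959).

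Among receptors, kinases and inhibitors of the JAK-STAT pathway, 17 of 25 genes passed the filter, and the median was -0.04. By edgeR 1 gene was higher, against 5.09% of all genes tested, and 1 was lower, against 4.76%. At an unadjusted p under 0.05 were 5 of 17, near the background of 26.2%. The conditions did not overlap for 5 of 17, near the 29.2% of all genes. Among the genes too low to test, SOCS1, SOCS6 and KIT were higher without overlap and are named after their values were seen. SOCS1 was counted 1, 6 and 1 times in sgCtrl and 17, 99 and 33 times in sgN6AMT1. SOCS6 had 7, 6 and 8 against 10, 74 and 46, and KIT had 2, 7 and 4 against 8, 50 and 36. These counts are low, the deeper libraries were all of sgN6AMT1, and the other untested genes overlapped. IL6ST, the signalling receptor subunit gp130, was at 37.6, 38.1 and 43.6 cpm in sgCtrl and at 89.6, 76.7 and 81.8 cpm in sgN6AMT1. The conditions were far apart relative to their SD of 3.34 and 6.50 cpm, and IL6ST rose by a log2 fold change of 1.04 (SE 0.20, edgeR adjusted p = 0.00414), or 2.06-fold. JAK2, a kinase that phosphorylates STAT5 below cytokine receptors, was at 103.5, 98.1 and 95.5 cpm in sgCtrl and at 65.3, 74.7 and 53.7 cpm in sgN6AMT1. It fell by 0.61 on the log2 scale (SE 0.19, edgeR adjusted p = 0.0446), but the call was lost when any one of the 6 libraries was left out (adjusted p = 0.0514 to 0.135). STAT5A and JAK2 were thus both lower in all sgN6AMT1 libraries, with JAK2 close to the threshold.

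Further target genes of STAT5 showed no call by edgeR or by DESeq2 among the 12 of 16 that passed the filter. Their median log2 fold change was 0.09, with 6 positive and 6 negative values, and the conditions did not overlap for 7 of the 12, against 29.2% of all genes. At an unadjusted edgeR p under 0.05 were 4 of the 12, against 26.2%. Under 6 of the 18 alternatives edgeR called 1 or 2 genes of the list, with 2 called with no filter, with the replicate block and without sgN6AMT1 replicate 1. SKP2, a subunit of a ubiquitin ligase that degrades cell cycle inhibitors, was at 161.7 ± 16.9 cpm in sgCtrl and 126.6 ± 10.46 cpm in sgN6AMT1 (log2 fold change -0.36, edgeR adjusted p = 0.156). The other 3, named after their values were seen, had positive values. PIM2, the paralog of PIM1, was at 92.4 ± 13.3 and 141.3 ± 44.6 cpm (0.64, edgeR adjusted p = 0.0611), CCND3, which encodes cyclin D3, at 110.0 ± 24.8 and 160.8 ± 13.5 cpm (0.56, 0.0524), and ID1, an inhibitor of helix-loop-helix factors, at 24.0 ± 2.01 and 39.6 ± 3.46 cpm (0.74, 0.0674). TFRC, the transferrin receptor and the gene of the list with the highest mean count, was at 1104 ± 115.0 and 930.9 ± 9.19 cpm (-0.25, edgeR adjusted p = 0.300). The positive values of PIM1, SOCS2 and CISH were thus shared by 6 of these 12 genes, as 4228 of the 8324 genes tested also had positive values.

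**Figure D5:**
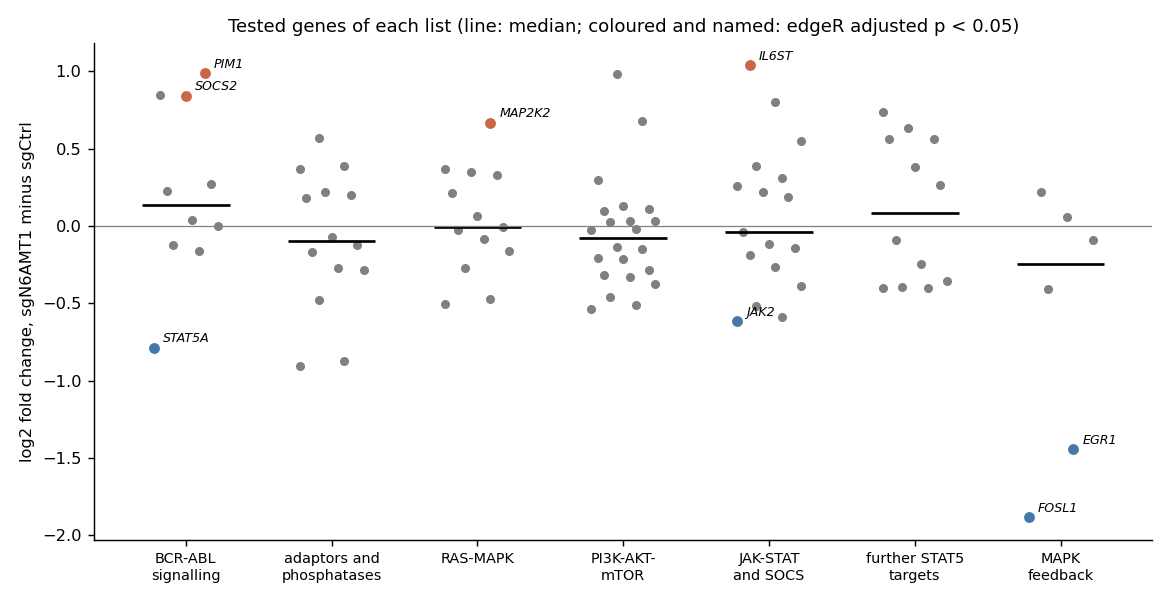
Log2 fold change of each tested gene, sgN6AMT1 against sgCtrl, for the 10 members and the 6 further lists; horizontal bars are medians, and coloured, named points passed an edgeR adjusted p of 0.05. The 3 called members lie at -0.79, 0.84 and 0.99, and the 5 called genes of the other lists run from -1.88 (FOSL1) to 1.04 (IL6ST).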

How the data were processed

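The authors deposited raw counts of reads per gene, without normalization, for 3 sgCtrl and 3 sgN6AMT1 libraries of total RNA after rRNA depletion, although the labels give polyA RNA. They had trimmed reads by cutadapt, aligned them to GRCh38 by HISAT2 and overlapped them with gene models (tool versions not given in the sources used here). All per-sample columns were used, with conditions taken from the labels. The whole table was filtered with filterByExpr, scaled by TMM and tested by the quasi-likelihood functions of edgeR 4.0.16 under R 4.3.3 with no covariate, where the study used DESeq2. Adjusted p-values (Benjamini-Hochberg) cover all 8324 genes tested, and the common biological coefficient of variation was 0.160. The 14 to 22 counts of CISH per sgCtrl library limit its precision. Ratios were compared by exact permutation in Python 3.11.15 with scipy 1.17.1.

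The members and lists were chosen with earlier results of these data known. Named genes are the members, the targeted gene, and per list every gene past 0.05, filled up to 2 by mean level; others are said to be named after their values were seen. One gene that this rule names is not reported here. Alternatives were DESeq2 1.42.0, RLE or total-count scaling, other filters, a replicate block, scaling that leaves out mt-DNA-encoded genes, correction for GC content and length (values for 8172 genes, 98.2%), thinning of the deep libraries to 858710 counts, an adjusted p under 0.01, pooled counts for the ratios, and each library left out. Comparing sgN6AMT1 replicate 1 alone with sgCtrl was added after seeing the data. Positions are from GENCODE v44, not the release the authors used on that build.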

Additional observations from a re-analysis of the deposited data

How the results depend on the processing

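The number of members called was 3 under the main settings and 2 to 4 under the 18 alternatives. STAT5A (-1.03 to -0.69, adjusted p at most 0.0369) and SOCS2 (0.77 to 1.01, at most 0.0309) kept their calls in all 17 refits, and IL6ST did as well (0.99 to 1.22, at most 0.0353). PIM1 ranged from 0.50 to 1.16 and lost its call only with sgN6AMT1 replicate 1 alone against sgCtrl. CISH gained one with no filter on low counts (adjusted p = 0.0450), with the replicate block (0.0403) and without sgN6AMT1 replicate 3, and its adjusted p ran from 0.0161 to 0.355. JAK2 lost its call in 12 of the 17 refits, DESeq2 among them (0.0611). With sgN6AMT1 replicate 1 alone, MAP2K2 (0.336), EGR1 (0.331) and FOSL1 (0.585) lost theirs too, and EGR1 and FOSL1 were not tested with at least 10 counts in every library. The cause of these changes was not tested, and the refits with libraries left out also rest on fewer libraries.

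The number of all genes called, 820, became 214 at an adjusted p under 0.01, 1347 with the replicate block with GC content and length, 122 with sgN6AMT1 replicate 1 alone and 220 to 951 with each library left out, lowest without sgCtrl replicate 2 (220) and replicate 1 (301), then without sgN6AMT1 replicate 2 (495) and replicate 3 (538). The 5 listed pathway genes called became 2 at an adjusted p under 0.01, 12 with no filter, 3 with at least 10 counts in every library, 10 with the replicate block, 12 with the block and GC content and length, 1 with sgN6AMT1 replicate 1 alone and 2 to 9 with each library left out (2 without sgCtrl replicate 2, 3 without sgCtrl replicate 1, 9 without sgN6AMT1 replicate 1). The adaptors and phosphatases, the PI3K-AKT-mTOR genes and the further STAT5 targets, with 0 calls each, had 0 to 2 under the alternatives, and PTPN11 gained a call without sgCtrl replicate 3 (0.0477). Same-numbered libraries of the conditions deviated together with r of -0.001, 0.083 and 0.19 across genes, and not every library was nearest to its own number, so the numbers were not taken to pair them; under the block 1195 genes were called in all. No other member changed its call under the block.

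Among the values reported, signs turned only near 0, and none of these was called. GAB2 was -0.129 with thinned libraries and -0.0589 to 0.146 with each library left out. CRKL was 0.026 with at least 10 counts, 0.009 with the replicate block, 0.0155 with GC content and length, 0.0237 with both, 0.0341 with sgN6AMT1 replicate 1 alone and -0.0882 to 0.104 with each library left out. RHEB was 0.0058 with at least 10 counts, 0.220 with sgN6AMT1 replicate 1 alone and -0.133 to 0.179 with each library left out. The log2 ratio of ABL1 to BCR differed by -0.0409 to 0.111 with each library left out, while the STAT5A share differed by -12.4 to -9.57 percentage points and the SOCS-box ratio by 1.190 to 1.499. Low counts limit CISH (14 to 22 in sgCtrl), EGR1 and FOSL1 (7 and 5 in sgN6AMT1 replicate 1) and PIK3CD (4 to 9 in sgCtrl).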
